A study of Mus musculus with 6 samples.

Results

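The NLRP3 inflammasome and pyroptosis genes examined here were Nlrp3, Pycard, Casp1, Casp4, Il18, Gsdmd, Nek7, Txnip, P2rx7 and Panx1. They were taken by gene symbol from the gene rows of the deposited expression table, where these 10 genes made up 10 of 36210 rows, and all 10 were among the 20363 genes that passed the filter on low counts. The libraries came from brains of APP/PS1 mice, 8 months old, a line that carries mutant human amyloid precursor protein and presenilin transgenes and forms amyloid plaques. No source used here gives the promoters that drive them. All mice carried the transgenes, and no wild-type group was analysed here. 3 libraries were from mice injected intraperitoneally with 0.9% saline (vehicle) and 3 from mice injected in the same way with AVE0991, a small molecule that activates Mas, the receptor of angiotensin-(1-7), at 10 mg per kg, in both cases daily for 30 days. The series title places NLRP3 in the pathway through which the compound acts in astrocytes, so the question of the comparison was whether transcripts of the inflammasome differed between the 2 groups. The labels do not state that each library is a separate animal, so p-values measure the spread between these libraries, which may be technical.

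The NLRP3 inflammasome is a cytosolic complex that matures inflammatory cytokines. In the usual scheme a priming step through Toll-like receptors and NF-kB raises transcription of Nlrp3. A second step, often potassium efflux after extracellular ATP opens the P2X7 receptor, lets the kinase NEK7 bind NLRP3, which then recruits the adaptor ASC (gene Pycard) and caspase-1. Caspase-1 cleaves pro-interleukin-18 and gasdermin D, whose fragment forms membrane pores and leads to pyroptosis. Mouse caspase-11 (gene Casp4) senses intracellular lipopolysaccharide and cleaves gasdermin D directly. In brain, most of these components are described in microglia.

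Libraries held 44583296 to 50066692 counts on gene rows. Levels are given as CPM, which are counts scaled to the library total after TMM adjustment of that total. The labels name astrocytes. The summed level of 12 astrocyte markers ran from 6118 to 7454 CPM among vehicle and from 6928 to 8781 CPM among AVE0991 libraries. Of the 12, 11 were above 0 in log2 fold change, with a list median of 0.63 and 0 called. Slc1a2, a glutamate transporter gene and the largest part of the vehicle sums at 3019 to 4307 CPM, was the 1 below 0, at -0.32. Beside them, 10 neuron markers summed to 4680 to 5772 CPM and 8 oligodendrocyte markers to 3704 to 11950 CPM over the 6 libraries. AVE0991 replicates 2 and 3 stood apart in 8 cerebellar granule cell markers, whose sums were 1570 and 1583 CPM against 219 to 262 CPM in the other libraries. The same 2 libraries held the highest astrocyte sums, 8592 and 8781 CPM. AVE0991 replicate 1, at 6928 CPM, lay within the vehicle range of that sum. The 15 microglia markers summed to 549 to 626 CPM with vehicle and 498 to 723 CPM with AVE0991, with 0 of 15 called and none at 0. In such mixed RNA, fewer cells of a type and less RNA per cell cannot be told apart.

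Promoter windows are printed below for Nek7, the member that passed the test, and for Nlrp3, Casp4 and Txnip, which did not pass. Nlrp3 has 2 annotated start sites, the caspase of Casp4 is itself induced on priming, and Txnip is a glucose-responsive gene. Each window runs from 250 bases before to 50 bases after an annotated start. The windows are taken from RefSeq on GRCm38.p6, a build other than the mm9 that the labels name. 12 windows of 9 of the 10 genes were matched in this table. Capitals mark CG dinucleotides in Nek7, matches to the NF-kB consensus in Nlrp3 and Casp4, and the carbohydrate response element in Txnip.
Nek7, chr1:138619708-138620007, minus strand: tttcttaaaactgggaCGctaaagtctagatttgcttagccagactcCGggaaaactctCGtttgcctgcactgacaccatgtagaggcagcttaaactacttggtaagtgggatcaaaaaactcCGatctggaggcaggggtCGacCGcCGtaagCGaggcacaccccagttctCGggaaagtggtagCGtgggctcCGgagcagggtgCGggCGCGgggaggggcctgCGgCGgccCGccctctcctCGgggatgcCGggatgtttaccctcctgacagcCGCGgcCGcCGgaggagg
Nlrp3, upstream start, chr11:59541319-59541618, plus strand: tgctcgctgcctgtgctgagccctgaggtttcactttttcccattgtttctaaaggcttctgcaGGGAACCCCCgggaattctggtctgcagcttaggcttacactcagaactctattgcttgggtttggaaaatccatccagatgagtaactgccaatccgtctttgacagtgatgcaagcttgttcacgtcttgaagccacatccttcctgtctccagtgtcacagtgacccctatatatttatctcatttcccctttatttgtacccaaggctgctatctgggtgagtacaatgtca
Nlrp3, downstream start, chr11:59542436-59542735, plus strand: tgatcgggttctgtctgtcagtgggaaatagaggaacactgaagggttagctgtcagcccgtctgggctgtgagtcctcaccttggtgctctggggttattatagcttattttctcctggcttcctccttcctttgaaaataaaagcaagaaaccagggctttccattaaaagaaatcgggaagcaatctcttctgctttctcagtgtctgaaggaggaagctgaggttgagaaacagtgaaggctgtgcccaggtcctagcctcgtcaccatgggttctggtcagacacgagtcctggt
Casp4, upstream start, chr9:5308599-5308898, plus strand: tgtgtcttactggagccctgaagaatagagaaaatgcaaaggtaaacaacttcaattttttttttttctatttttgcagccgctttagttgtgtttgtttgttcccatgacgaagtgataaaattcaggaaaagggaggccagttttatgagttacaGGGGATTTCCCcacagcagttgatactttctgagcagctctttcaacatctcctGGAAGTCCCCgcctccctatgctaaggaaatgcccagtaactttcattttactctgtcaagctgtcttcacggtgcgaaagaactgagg
Txnip, chr3:96557707-96558006, plus strand: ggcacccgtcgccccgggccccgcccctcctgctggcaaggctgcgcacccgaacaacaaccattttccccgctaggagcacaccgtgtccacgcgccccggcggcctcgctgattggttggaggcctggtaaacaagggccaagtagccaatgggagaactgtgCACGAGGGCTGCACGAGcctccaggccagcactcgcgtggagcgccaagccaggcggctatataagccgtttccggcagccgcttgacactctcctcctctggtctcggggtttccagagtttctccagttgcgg

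The Nek7 window held 23 CG dinucleotides and 61% GC, against a median of 7 and 52.7% over 32851 mouse promoter windows, of which 80% held no more CG. Txnip (24 and 65.3%) and Panx1 (25 and 61.3%), not called, had more. The windows of the other members held 1 to 8 CG dinucleotides. The longest annotated Nek7 transcript, in contrast, had a GC content of 40.4%. Both strands were searched for the NF-kB consensus, which 8.46% of all windows contain. The upstream Nlrp3 window had 1 such site, at position -186 from the start and matching on both strands, and the downstream Nlrp3 window had none of these letters. The Casp4 window had 2 overlapping matches at -93 and -92 and 1 more, on the other strand, at -39. The windows of Nek7, Pycard, Casp1, Il18, Txnip, P2rx7 and Panx1 had no match to the NF-kB consensus. The Txnip window held a carbohydrate response element, the paired E-box-like site of MondoA and ChREBP, at position -85 with the letters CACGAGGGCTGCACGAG, a pattern that 0.0487% of all windows contain. These matches describe letters and are not evidence of binding.

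Of the 10 genes, 1 was called, at an edgeR adjusted p under 0.05. This was Nek7, which was lower in AVE0991 libraries. Over all genes tested 0.83% were called lower and 0.0344% higher, 0.864% in all. The groups did not overlap in CPM for 1 of the 10 genes, again Nek7, while they did not overlap for 30.6% of all genes tested. 7 genes had a log2 fold change below 0 and 3 above, where 50.7% of all genes were below 0. The median of the 10 was -0.14 and that of all genes tested -0.01. With 10 genes, 1 call is a small count, and the 9 others had adjusted p-values of 0.258 to 0.902.

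**Figure D1:**
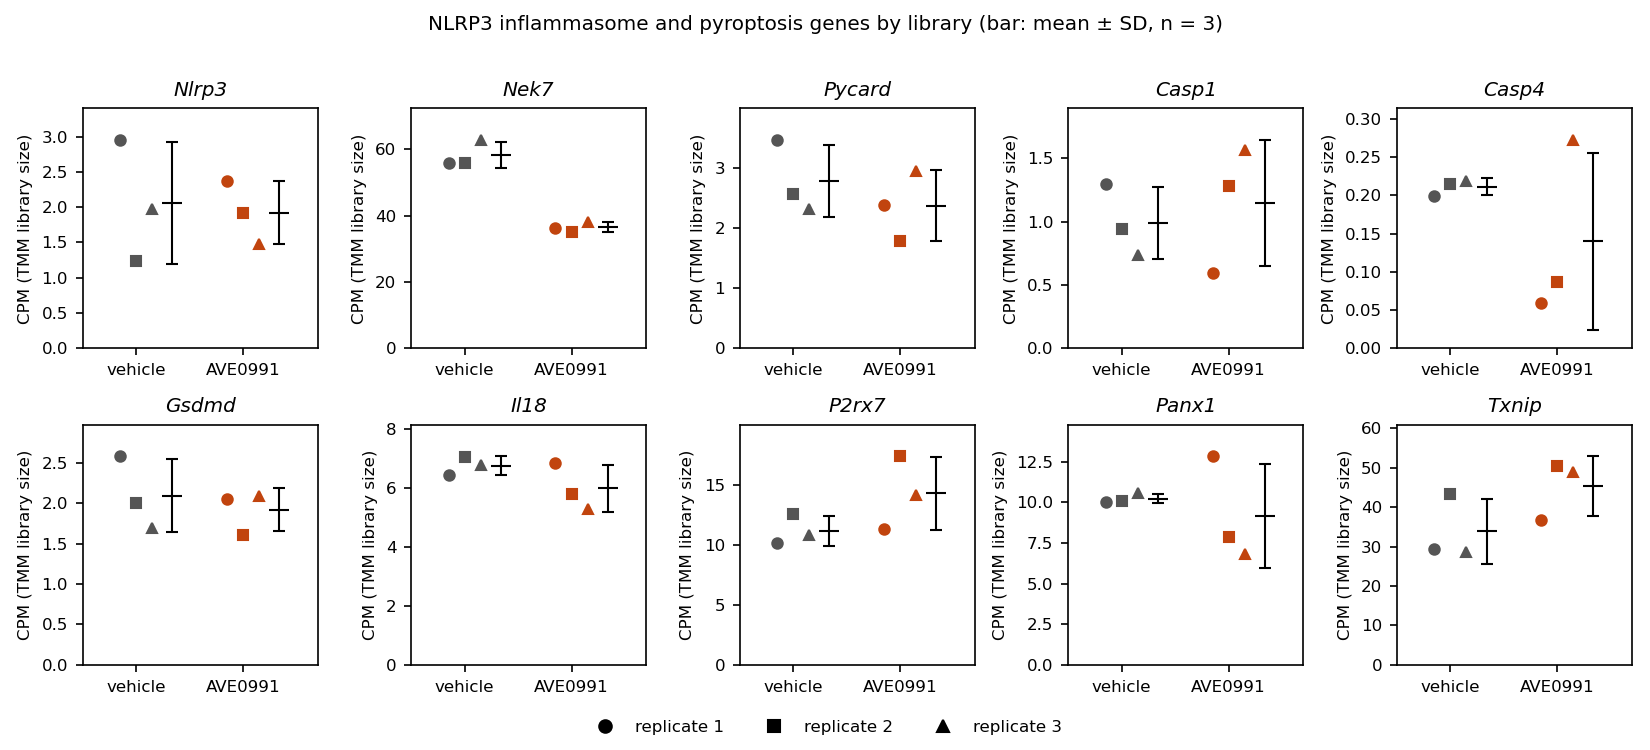
CPM (y axis, linear from 0) of each of the 10 genes in the 3 vehicle and 3 AVE0991 libraries (x axis), with the replicate number as symbol and the mean ± SD beside the points. Nek7 is the gene whose groups separate, with vehicle libraries at 55.9 to 62.8 CPM and AVE0991 libraries at 35.2 to 38.2 CPM.

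Nlrp3, the sensor of the complex, was expressed at a low level. It stood at 2.95, 1.23 and 1.97 CPM in vehicle replicates 1, 2 and 3 and at 2.37, 1.92 and 1.48 CPM in AVE0991 replicates 1, 2 and 3. The highest and the lowest of the 6 libraries were both vehicle libraries, and the AVE0991 libraries lay between them. The mean was 2.05 ± 0.863 CPM for vehicle and 1.92 ± 0.449 CPM for AVE0991 (SD, n = 3 each). The log2 fold change was -0.09, smaller than its SE of 0.36 (edgeR adjusted p = 0.902). The sign turned to 0.29 without vehicle replicate 1, to 0.07 without AVE0991 replicate 3 and to 0.22 without AVE0991 replicates 2 and 3.

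The deposited table gives Nlrp3 on a second scale, read here as FPKM (fragments scaled to transcript length and library total). There the order of libraries was different. FPKM was 1.45, 0.56 and 0.9 in vehicle replicates 1, 2 and 3 and 0.7, 0.59 and 0.62 in AVE0991 replicates 1, 2 and 3. The means were 0.97 ± 0.449 and 0.637 ± 0.0569 FPKM (SD, n = 3 each), and limma on log2(FPKM + 0.1) gave a log2 difference of -0.45 (adjusted p = 0.446), so neither scale passed. The unit FPKM was worked out from the values, and the counting program is not known. If the unit holds, count and FPKM together imply a transcript length for each library. It was computed as the count divided by the FPKM and by the scaled library total without TMM adjustment. This length was 2071, 2296 and 2261 bases in vehicle replicates 1, 2 and 3, and 3389, 3106 and 2272 bases in AVE0991 replicates 1, 2 and 3. The 2 highest values belonged to AVE0991 libraries, while AVE0991 replicate 3 lay among the vehicle libraries. The highest implied length of Nlrp3 was 1.64 times the lowest. Over 13573 genes with at least 60 counts and 0.5 FPKM in every library the median of this ratio was 1.03, and 1.08% of them reached the ratio of Nlrp3. Nlrp3 lay close to both cut-offs, with 63 counts and 0.56 FPKM in vehicle replicate 2. It was not compared with genes of like count alone, so the 1.08% does not say how rare its ratio is at its depth. For Txnip the implied length ran from 2745 to 2761 bases. The ratio was 1.44 for Casp4, which had fewer counts than Nlrp3, and 1.23 for P2rx7, which had more. The longest of 3 annotated Nlrp3 transcripts has 4021 bases, and per-transcript values were not analysed here. Nlrp3 and Nek7 were also the 2 genes of the 10 with fractional estimated counts, in 5 and 6 libraries, while the other 8 had whole counts throughout. Over all gene rows and libraries 81.6% of the estimated counts were whole, unexpressed rows included.

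**Figure D2:**
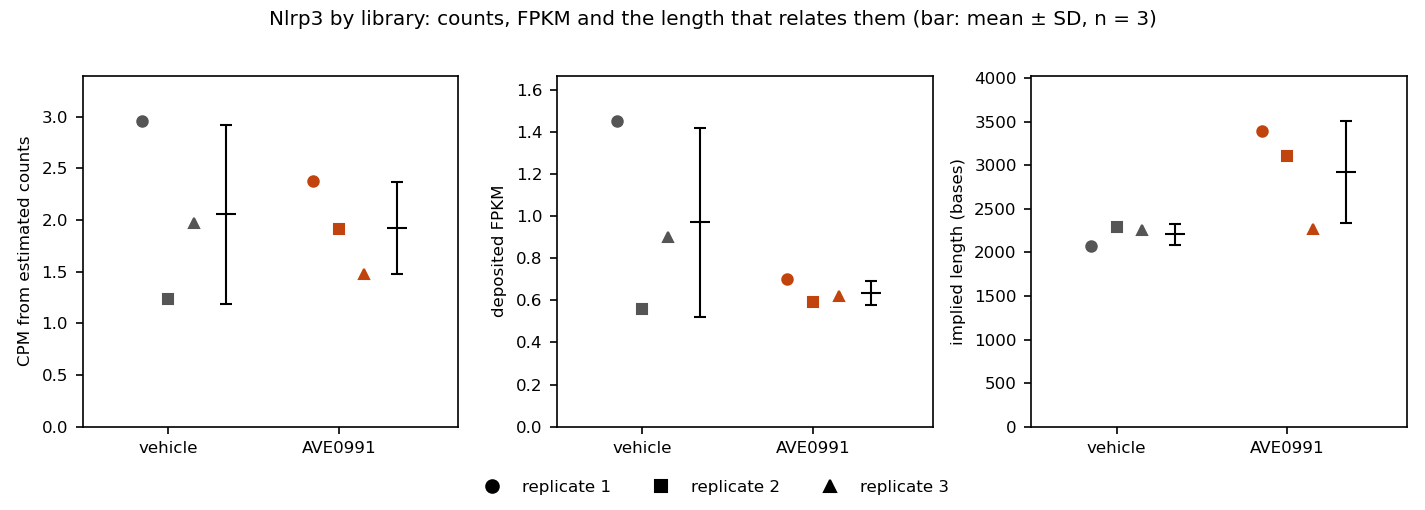
Nlrp3 in each library as CPM, as deposited FPKM and as the transcript length in bases implied by both (y axes, linear from 0), for 3 vehicle and 3 AVE0991 libraries (x axis), with mean ± SD beside the points. The implied length of AVE0991 replicates 1 and 2, at 3389 and 3106 bases, lies above the 2071 to 2296 bases of the vehicle libraries, and AVE0991 replicate 3 lies at 2272 bases.

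Neutrophils express Nlrp3 strongly, and 7 neutrophil markers were measured beside it. Their summed level was 43.9, 15.15 and 30.5 CPM in vehicle replicates 1, 2 and 3 and 28.5, 19.7 and 24.4 CPM in AVE0991 replicates 1, 2 and 3. In this sum vehicle replicate 1 was highest and vehicle replicate 2 lowest, as for Nlrp3. Ngp, Camp, Mmp8, Elane and Ly6g were lowest in vehicle replicate 2. S100a8 and S100a9 were lowest in AVE0991 replicate 2, at 1.85 and 3.31 CPM. The microglia sum had another order, highest in AVE0991 replicate 1 (723 CPM) and lowest in AVE0991 replicate 2 (498 CPM). Of the neutrophil markers 6 were tested and 0 called, and none was at 0 in any library. The part of either cell type in the Nlrp3 values was not tested.

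Nek7 encodes the kinase that binds NLRP3 during activation and otherwise serves in spindle formation. It was at 55.9, 55.9 and 62.8 CPM in vehicle replicates 1, 2 and 3 and at 36.2, 35.2 and 38.2 CPM in AVE0991 replicates 1, 2 and 3. The lowest vehicle library was well above the highest AVE0991 library, and the libraries within each group lay close together, AVE0991 replicates 2 and 3 included. It fell 1.59-fold, from 58.2 ± 3.99 to 36.5 ± 1.53 CPM (SD, n = 3 each), which is -0.67 on the log2 scale (SE 0.09, edgeR adjusted p = 0.043). In the authors' deposited table Nek7 had a log2 fold change of -0.65 and a q-value of 6.43e-05, where 4.71% of gene rows had a q-value under 0.05. FPKM fell as well, from 17.1 ± 0.883 to 9.9 ± 0.26 (SD, n = 3 each; limma log2 difference -0.78, adjusted p = 0.043), in a fit that called 1.17% of genes. The size of the log2 fold change stayed within -0.70 to -0.61 with any 1 library left out, but the adjusted p was then 0.0999 to 0.227 except without AVE0991 replicate 1, where it was 0.0164 and 11.4% of genes were called.

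Genes of low GC content as a group stood lower with AVE0991, and Nek7 is one of them. For the 905 other genes within 1 percentage point of its GC content, the log2 fold changes centred on a median of -0.42, and 4.42% were called. Of these genes, 27.5% had a lower log2 fold change than Nek7. After a per-library correction for GC content the log2 fold change of Nek7 was -0.26 (SE 0.09, edgeR adjusted p = 0.277) and it was no longer called, in a fit that called 0.00491% of all genes. The 5 named genes whose log2 CPM followed Nek7 most closely over the 6 libraries, out of 13615 with a mean of at least 1 CPM, were Trnt1, Ssr3, Eif1ax, Mtdh and Gnpda2, with a Pearson r of 0.996 to 0.997. Their GC content was 39.2% to 42.6%. Eif1ax, a translation initiation factor, stood at 81.9 to 89.7 CPM in vehicle and 59.1 to 64 CPM in AVE0991 libraries. Trnt1, which adds the CCA end to transfer RNAs, stood at 17.6 to 19.5 and 11.1 to 11.5 CPM. The libraries also differ along GC content, which these genes share, so this likeness is a description.

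**Figure D3:**
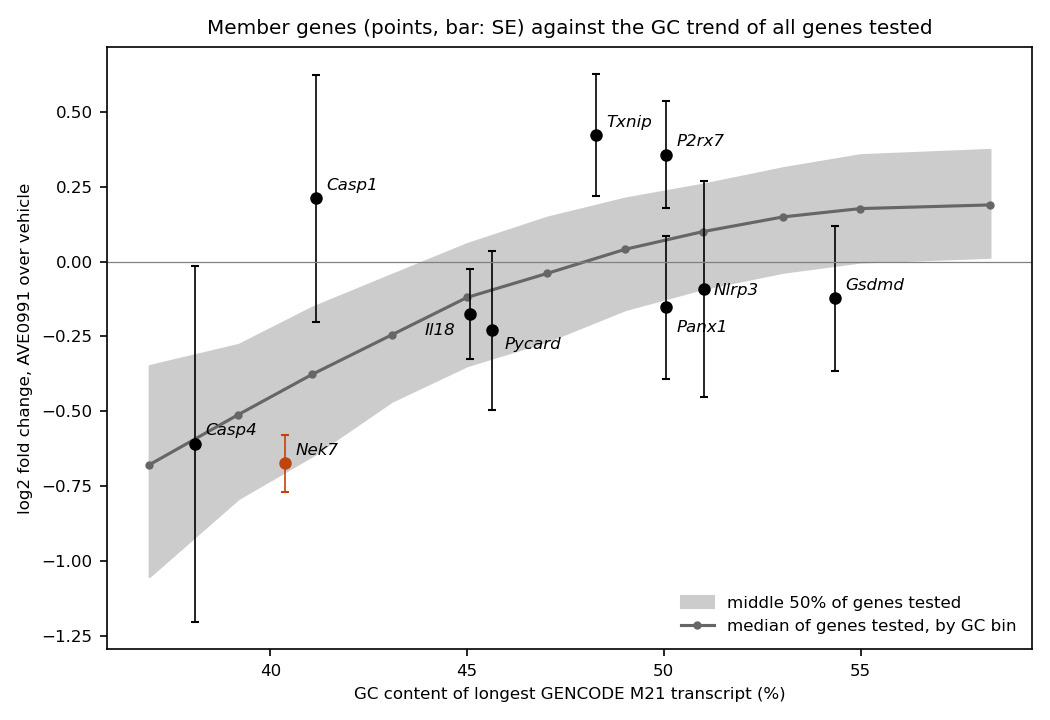
log2 fold change of AVE0991 over vehicle (y axis) against GC content of the longest annotated transcript in percent (x axis). The grey line and band give the median and middle 50% of all genes tested with a GC value by bin, and points with SE bars give the 10 genes. Nek7, the called gene, lies at 40.4% GC and -0.67, and it and Nlrp3 lie at the lower edge of the band, while Casp1, Txnip and P2rx7 lie above the band and Gsdmd and Panx1 below it.

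The closest relative of Nek7, Nek6, was not called. Nek6, a mitotic kinase of 47.7% GC, was at 25.1, 23.2 and 20.4 CPM in vehicle replicates 1, 2 and 3 and at 25.4, 23.1 and 25.8 CPM in AVE0991 replicates 1, 2 and 3 (log2 fold change 0.11, SE 0.11, adjusted p = 0.572). Among the 10 other NIMA-related kinases 0 were called, where 0.864% of all genes tested were. Of the 10, 5 were above and 5 below 0, with a median of 0.02, or 0.08 after the GC correction. An unadjusted edgeR p under 0.05 was reached by 6 of the 10, where 23.6% of all genes tested reached it. The groups did not overlap for 3 that were higher and 3 that were lower with AVE0991, where 30.6% of all genes tested did not overlap. Nek1, a ciliary kinase, stood at -0.41 (adjusted p = 0.131), Nek9, which activates NEK6 and NEK7, at 0.32 (adjusted p = 0.169), Nek11 at -0.82 (adjusted p = 0.138) and the mitotic kinase Nek2 at 1.68 (adjusted p = 0.114). The difference between Nek7 and its relatives was not tested.

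Pycard, the adaptor ASC, was at 3.46, 2.56 and 2.31 CPM in vehicle replicates 1, 2 and 3 and at 2.37, 1.79 and 2.95 CPM in AVE0991 replicates 1, 2 and 3. The groups overlapped, and the log2 fold change was -0.23 (SE 0.27, adjusted p = 0.637). Without vehicle replicate 1, its highest library, the value was -0.02. Casp1, the protease that ASC recruits, was at 1.3, 0.939 and 0.737 CPM in vehicle replicates 1, 2 and 3 and at 0.598, 1.28 and 1.57 CPM in AVE0991 replicates 1, 2 and 3. The AVE0991 libraries held both its lowest and its highest value, and the lowest was AVE0991 replicate 1, the library without the cerebellar signal. The log2 fold change was 0.21 (SE 0.41, adjusted p = 0.791), with -0.07 without AVE0991 replicate 3 and -0.72 without AVE0991 replicates 2 and 3. Casp1 has 41.1% GC, and 94% of the 1046 genes of like GC content had a lower log2 fold change; after the GC correction it stood at 0.56 (SE 0.40, adjusted p = 0.532).

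Casp4, the gene of caspase-11, was counted at 9, 11 and 11 counts in vehicle replicates 1, 2 and 3 and 3, 4 and 12 counts in AVE0991 replicates 1, 2 and 3. AVE0991 replicates 1 and 2 were below all vehicle libraries and replicate 3 was above them. Its log2 fold change of -0.61 (SE 0.59, adjusted p = 0.569) was -1.49 without AVE0991 replicate 3 and -0.23 without AVE0991 replicate 1. The GC-corrected value was -0.07.

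Gsdmd, the pore-forming substrate, was at 2.58, 2 and 1.69 CPM in vehicle replicates 1, 2 and 3 and at 2.05, 1.61 and 2.09 CPM in AVE0991 replicates 1, 2 and 3. The groups overlapped (log2 fold change -0.12, SE 0.24, adjusted p = 0.793), and the value was 0.08 without vehicle replicate 1. Il18, the cytokine substrate, was at 6.44, 7.06 and 6.79 CPM in vehicle replicates 1, 2 and 3 and at 6.86, 5.81 and 5.29 CPM in AVE0991 replicates 1, 2 and 3. AVE0991 replicates 2 and 3 were the 2 lowest libraries, and replicate 1 lay among the vehicle libraries (log2 fold change -0.18, SE 0.15, adjusted p = 0.514). Without those 2 libraries Il18 stood at 0.03.

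The channels and the stress-linked partner of NLRP3 split by library. P2rx7, the ATP-gated cation channel, was at 10.1, 12.5 and 10.8 CPM in vehicle replicates 1, 2 and 3 and at 11.3, 17.4 and 14.1 CPM in AVE0991 replicates 1, 2 and 3. Panx1, a channel that releases ATP, was at 10, 10.1 and 10.5 CPM in vehicle replicates 1, 2 and 3 and at 12.8, 7.88 and 6.83 CPM in AVE0991 replicates 1, 2 and 3. AVE0991 replicates 2 and 3, the libraries with cerebellar markers, were the highest for P2rx7 and the lowest for Panx1, and AVE0991 replicate 1 was the highest of all for Panx1. The part of the cerebellar signal in this was not tested. The log2 fold changes were 0.36 (SE 0.18, adjusted p = 0.274) for P2rx7 and -0.15 (SE 0.24, adjusted p = 0.731) for Panx1. Without AVE0991 replicates 2 and 3 they were 0.03 and 0.34. The implied length of P2rx7, a gene with 8 annotated transcripts, ran from 3172 bases in AVE0991 replicate 2 to 3900 bases in vehicle replicate 1.

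Txnip, the thioredoxin-interacting protein that binds NLRP3 under oxidative stress, was at 29.5, 43.4 and 28.6 CPM in vehicle replicates 1, 2 and 3 and at 36.6, 50.3 and 49 CPM in AVE0991 replicates 1, 2 and 3. Vehicle replicate 2 was higher than AVE0991 replicate 1, so the groups overlapped, and the log2 fold change was 0.42 (SE 0.20, adjusted p = 0.258). It kept its sign in all 19 alternative settings, from 0.12 without AVE0991 replicates 2 and 3 to 0.64 without vehicle replicate 2, and passed in 0 of them. Arrdc4, an alpha-arrestin that shares the MondoA control of Txnip, stood at -0.13 (adjusted p = 0.639). Among the 6 alpha-arrestin and MondoA genes tested 0 were called and the median was 0.18, or 0.06 after the GC correction. Arrdc2 stood at 0.67 (adjusted p = 0.212).

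**Figure D4:**
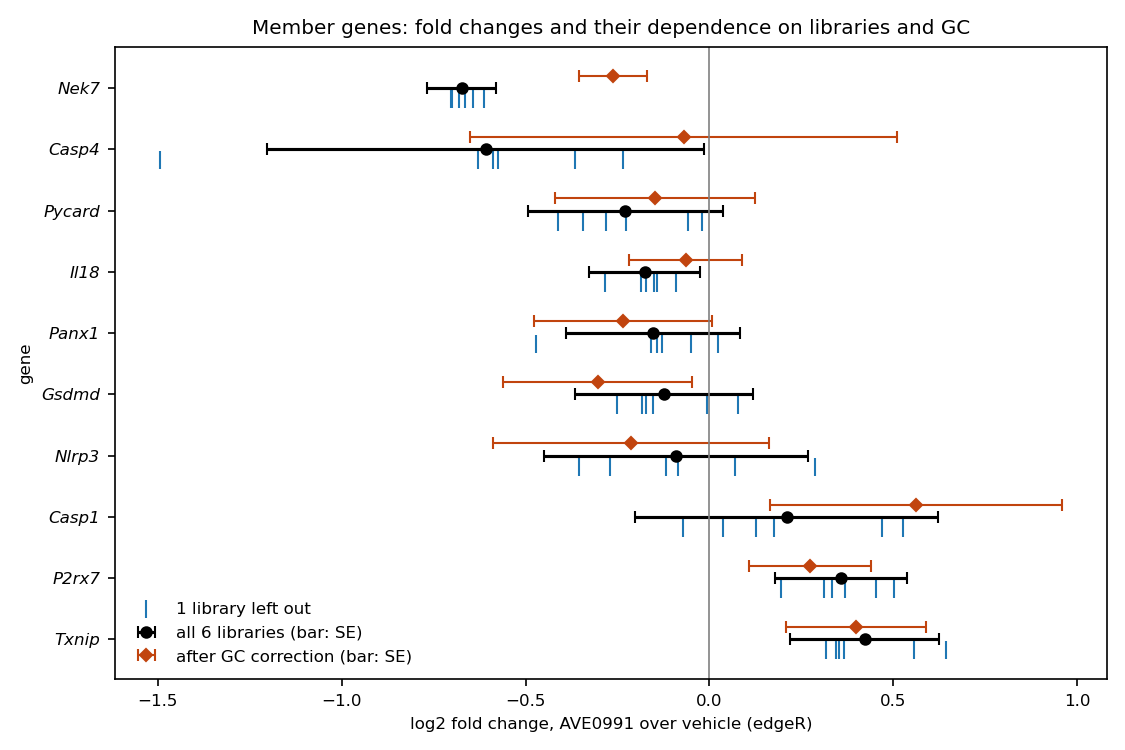
log2 fold change of AVE0991 over vehicle (x axis) for the 10 genes (y axis) with all 6 libraries and after the GC correction (bars: SE), and with each library left out in turn (ticks). Nek7 stays between -0.70 and -0.61 with any library left out and lies at -0.26 after the GC correction, and the bars of Nlrp3 cross 0.

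Between genes, levels can be compared only per length, and deposited FPKM was used for this. Over the 6 libraries the order was Txnip (14.3 ± 3.1 FPKM, SD), Nek7 (13.5 ± 4), Il18 (5.92 ± 0.855), Panx1 (4.83 ± 1.14), P2rx7 (3.6 ± 0.917), Pycard (1.17 ± 0.271), Gsdmd (1.17 ± 0.204), Nlrp3 (0.803 ± 0.34), Casp1 (0.727 ± 0.235) and Casp4 (0.138 ± 0.0659). This order pools both groups: in mean FPKM Nek7 was above Txnip with vehicle (17.1 against 12.7) and below it with AVE0991 (9.9 against 16). In vehicle replicate 2 alone Nek7 was below Txnip, at 16.1 against 16.5 FPKM. The vehicle order also turned per kilobase of the longest annotated transcript, with Nek7 at 11.1 and Txnip at 12 CPM per kilobase. Per kilobase of the longest annotated transcript, the vehicle mean of 7 of the 10 genes moved by more than its SD, with Panx1 at 1.78 CPM per kilobase against 5.21 FPKM, below P2rx7 at 2.26, and with Nlrp3 at 0.511 against 0.97 and Pycard at 0.731 against 1.3. The ranges of neighbours in the FPKM order overlapped except between Nek7 and Il18, between P2rx7 and Pycard, and between Casp1 and Casp4. The core of the complex, Nlrp3, Pycard and Casp1, and its pore Gsdmd stood in mean FPKM below the upstream regulators Nek7, Txnip, P2rx7 and Panx1 in these libraries.

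Ratios within a library do not depend on its scaling, and 4 were compared by an exact two-sided permutation test over the 6 libraries. The smallest possible p in it is 0.1. The ratios were not corrected for GC content, so they are not free of the GC trend where the genes of a ratio differ in it. Nek7 has 40.4% GC and Nlrp3 51.0%, and Casp1 has 41.15% and Gsdmd 54.35%. The log2 ratio of Nek7 to Nlrp3 averaged 4.91 ± 0.634 with vehicle and 4.27 ± 0.387 with AVE0991 (SD, n = 3 each, exact p = 0.2, adjusted p = 0.667 over 4 ratios). The log2 ratio of Casp1 to Pycard was -1.5 ± 0.127 and -1.13 ± 0.778 (exact p = 0.5), and that of Casp1 to Gsdmd -1.09 ± 0.106 and -0.84 ± 0.814 (exact p = 0.7). The log2 ratio of P2rx7 to Panx1 was 0.12 ± 0.167 and 0.67 ± 0.737 (exact p = 0.4), and AVE0991 replicate 1 had -0.18 while the others of its group had 1.14 and 1.05. All 4 ratios overlapped between the groups. The difference of Nek7 to Nlrp3, -0.64, was -0.34 without vehicle replicate 2, -0.97 without vehicle replicate 1 and -0.29 on deposited FPKM. That of Casp1 to Pycard, 0.38, was 0.05 without AVE0991 replicate 2 and 0.81 without AVE0991 replicate 1. That of P2rx7 to Panx1, 0.55, was 0.31 and 0.97 without these, and 0.36 without AVE0991 replicate 3. That of Casp1 to Gsdmd, 0.25, was -0.0056 and 0.72 without them, and 0.04 without AVE0991 replicate 3. The 3 that did not involve Nlrp3 spread more widely over AVE0991 than over vehicle libraries.

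The rest of the pathway was read from 11 further lists, with 77 different genes tested. Of these 0 were called by edgeR, 20 had an unadjusted p under 0.05, where 23.6% of all genes did, and DESeq2 called 7, in a fit that called 11.9% of genes. The median over these genes was 0.16, with 52 above 0 and 25 below, and after the GC correction it was 0.08, with 47 above 0. Among 10 other inflammasome sensors tested 7 were below 0 and 3 above, and the median was -0.18, or -0.13 after the GC correction. Of those above 0, Nlrp10 stood at 1.34 (adjusted p = 0.191). Nlrp1b, a sensor of bacterial proteases, stood at -1.10 (adjusted p = 0.119), and Aim2, which binds cytosolic DNA, at -0.81 (adjusted p = 0.132). Aim2 was at 1.39, 1.86 and 1.99 CPM in vehicle replicates 1, 2 and 3 and at 1.14, 0.958 and 0.885 CPM in AVE0991 replicates 1, 2 and 3, without overlap.

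Priming receptors and adaptors lay on the other side, with 10 of 11 above 0 and a median of 0.37. After the GC correction 9 of 11 were above 0 and the median was 0.19. Cd14, the co-receptor of Toll-like receptor 4, was at 3.33, 2.94 and 3.81 CPM in vehicle replicates 1, 2 and 3 and at 6.22, 4.94 and 5.77 CPM in AVE0991 replicates 1, 2 and 3. These did not overlap, but the gene did not pass (log2 fold change 0.75, SE 0.18, adjusted p = 0.0955). Rela, an NF-kB subunit, stood at 0.41 and Nfkb1 at 0.37 (adjusted p = 0.16 and 0.148). The receptor itself, Tlr4, of 39.4% GC, stood at -0.36 (adjusted p = 0.435) and turned to 0.11 after the GC correction. Among the 15 regulators of NLRP3 tested, 9 were above 0 and the median was 0.13, or 0.04 after the GC correction. The kinase gene Mapk8 (-0.70, adjusted p = 0.0803) and the deubiquitinase subunit gene Brcc3 (-0.53, adjusted p = 0.0951) had the smallest p-values and a GC content of 40.1% and 35.5%. After the GC correction they stood at -0.27 and 0.19. Mavs, a mitochondrial adaptor, stood at 0.61 (adjusted p = 0.112) and Cybb, the NADPH oxidase subunit of phagocytes, at -0.73 (adjusted p = 0.191).

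Of 8 genes of ion flux upstream of NLRP3 tested, 7 were above 0, with a median of 0.27. After the GC correction 4 of 8 were above 0 and the median was 0.18. They included Clic1, a chloride channel (0.80, adjusted p = 0.107), and Lrrc8a, a volume-regulated anion channel (0.88, adjusted p = 0.133). Lrrc8a was at 83.2, 109 and 117 CPM in vehicle replicates 1, 2 and 3 and at 126, 257 and 187 CPM in AVE0991 replicates 1, 2 and 3, higher in the libraries with cerebellar markers. The microglial channel gene P2rx4 stood at 0.43 (adjusted p = 0.255). Of the 7 other caspases tested 6 were above 0 (median 0.22, smallest adjusted p = 0.251), and the 3 gasdermin and membrane rupture genes tested, Gsdme, Ninj1 and Ninj2, had a median of 0.17 that turned to -0.04 after the GC correction, with 1 of 3 above 0. In interleukin-18 signalling 2 genes were tested, with Il18bp, the secreted inhibitor, at 0.56 (adjusted p = 0.355). Among 5 P2X receptors the median was 0.43, and 0.25 after the GC correction. Panx2, the 1 pannexin tested, stood at 0.36 (adjusted p = 0.389), and at 0.14 after the correction.

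**Figure D5:**
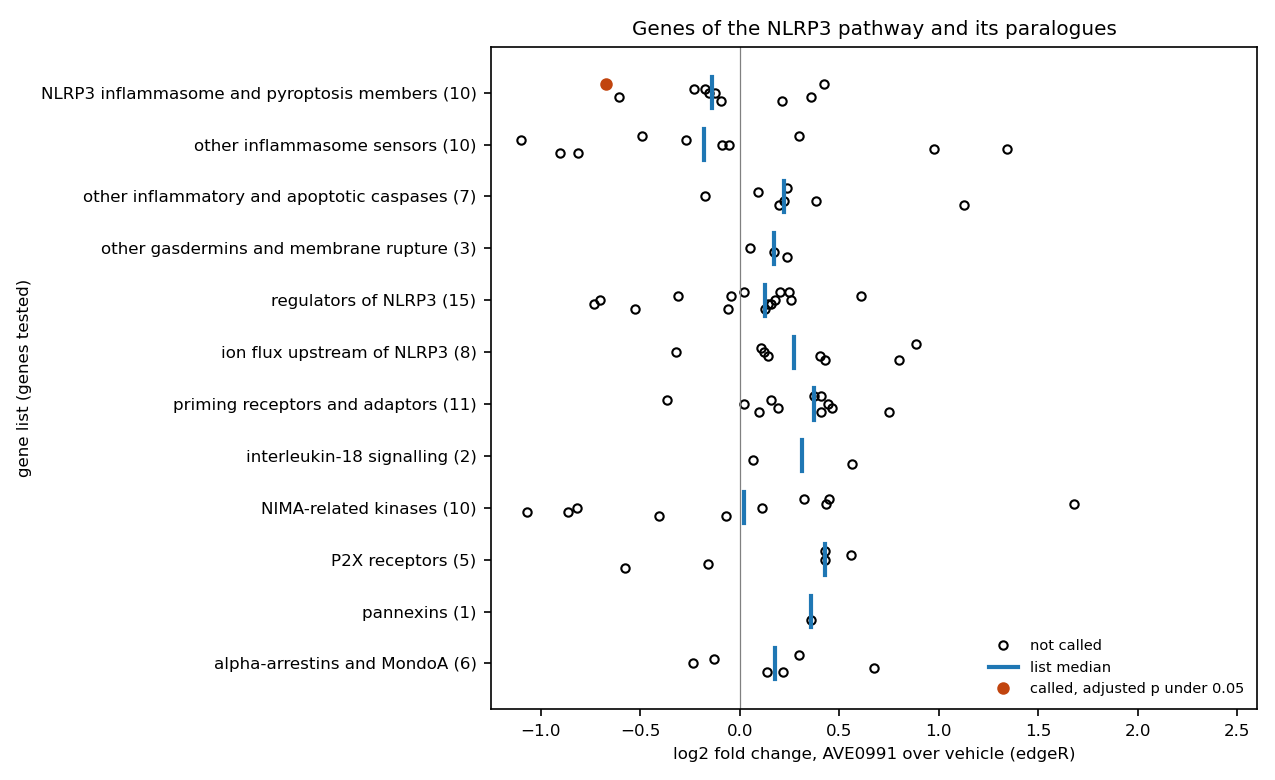
log2 fold change of AVE0991 over vehicle (x axis) for genes of the 10-gene set and 11 further lists (y axis, number tested in parentheses), with filled points for called genes and bars for list medians. Nek7 is the called gene, and the medians run from -0.18 for other sensors to 0.43 for P2X receptors.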

How the data were processed

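Per the labels' protocols, Trizol RNA of 6 libraries was cleared of ribosomal RNA, made into strand-marked cDNA by the dUTP method and circularised into nanoballs. Reads were aligned with HISAT to mm9, per the submitters' processing notes; versions, counting program, annotation and use of strand in counting are stated by no source used here. The authors deposited estimated counts and values read here as FPKM, a unit worked out from the values, and a DESeq2 comparison with log2 fold changes and p- and q-values, per the file headers. Its sign, AVE0991 over vehicle, matched the counts in 98% of genes.

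Estimated counts of gene rows were rounded and tested with edgeR 4.0.16 (R 4.3.3; filterByExpr, TMM, robust quasi-likelihood F test, no covariate), adjusted by Benjamini-Hochberg over 20363 genes; the SE is the log2 fold change over the square root of F. Unnamed rows held 7.45% to 10.5% of counts. Library pairs differed beyond sampling noise (chi-square per gene at least 16.4). FPKM were tested with limma 3.58.1 on log2(FPKM + 0.1). The GC correction subtracted a lowess fit (span 0.3) of each library's deviation on transcript GC (GENCODE M21, 82.8% of tested genes, all 10 members). DESeq2 1.42.0 and the other alternatives appear in the closing section. The members, lists, tests and the rule for named genes (members, then up to 4 genes per list by smallest p, and the 5 genes most like Nek7 or Nlrp3) were chosen with earlier results of these data known; some genes outside that rule (Tlr4, Nek9, Nek6 and Arrdc4) were named after their values were seen. Protein sequences were not used here.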

Additional observations from a re-analysis of the deposited data

How the results depend on the processing

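Nek7 had a negative log2 fold change in all 19 alternative settings and was called in 9. It was not called with gene and circular RNA rows in one fit (-0.69, edgeR adjusted p = 0.0572), after the GC correction (-0.26, 0.277), or without AVE0991 replicates 2 and 3 (-0.68, 0.178); without single libraries it ranged from -0.70 to -0.61. Deviations of same-numbered libraries from their group means correlated at -0.02, 0.09 and -0.35. Deviations within a group sum to 0, so these values cannot decide whether the libraries were paired. With the replicate block Nek7 stood at -0.67 (edgeR adjusted p = 0.125) and with block and GC correction at -0.26 (0.422). In either fit 0 genes were called, and 3937 and 2509 had an unadjusted p under 0.05. The number of members called was then 0, as with circular RNA rows, after the GC correction, and without single libraries (0 to 1) or the pair (0). Genes called higher and lower, 7 and 169 in all, were 994 and 1324 with DESeq2, 525 and 770 with limma-voom, 58 and 379 without a filter, 18 and 328 when a mean of 1 CPM was required, 1 and 1 with circular RNA rows, 1 and 0 after the GC correction, and 0 and 0 without AVE0991 replicates 2 and 3 (2833 at an unadjusted p under 0.05). After the length correction 13 were higher. Without single libraries they ran from 0 to 1386 higher and 0 to 995 lower, the highest without AVE0991 replicate 1. Other pathway genes called, a count added after seeing the data, were 7 with DESeq2, 2 with limma-voom, 1 without a filter and 0 to 10 without single libraries. In the main fit 77 such genes were tested. Over all genes, DESeq2 called 11.9%, limma-voom 1295 of 20363 and the fit without a filter 437 of 33731. The 10 came without AVE0991 replicate 1, where 11.4% of all genes were called.

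Nlrp3 ranged from -0.35 to 0.29 without single libraries, with 0.22 without AVE0991 replicates 2 and 3, and passed in no setting. The sign also turned for Casp1 (-0.073 to 0.53 without single libraries, negative without AVE0991 replicate 3, and -0.72 without replicates 2 and 3), Il18 (0.028 without that pair), Panx1 (-0.47 to 0.023, positive without AVE0991 replicate 3, and 0.34 without the pair) and Gsdmd (0.037 by limma-voom and -0.25 to 0.079 without single libraries, positive without vehicle replicate 1). The median of the 10 members ranged from -0.23 to 0.0295 without single libraries and was 0.0069 without AVE0991 replicates 2 and 3. The ratio of Casp1 to Gsdmd ranged from -0.0056 without AVE0991 replicate 2 to 0.72 without AVE0991 replicate 1. Casp4 dropped out when a mean of 1 CPM was required. With CPM per kilobase of the longest transcript, levels of 7 of the 10 genes moved (ratio to FPKM 0.35 to 1.22), and the rank correlation with the FPKM order was 0.927. The cause of these changes was not tested. Casp4 had 3 to 12 counts per library, the lowest of the 10 genes.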

Other observations

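Some low-abundance genes related to the inflammasome varied among AVE0991 libraries in the way that Casp1 did. Casp12, a caspase of the inflammatory group, had 0.16 CPM in AVE0991 replicate 1 but 1.72 and 1.7 CPM in the others of that group, against 0.259 to 0.727 CPM in vehicle libraries (log2 fold change 1.13, SE 0.82, edgeR adjusted p = 0.439). Nlrp10, a sensor-family gene, had 0.419, 0.827 and 1.29 CPM in AVE0991 replicates 1, 2 and 3 and 0.507, 0.293 and 0.199 CPM in vehicle replicates 1, 2 and 3 (1.34, SE 0.53, adjusted p = 0.191). Other low-abundance sensor genes did not follow this, and Nlrp6, Mefv, Naip5, Naip6, Nlrp1a and Nlrp1b were highest in replicate 1 among AVE0991 libraries. Nlrp6, for example, had 1.42, 0.631 and 1.18 CPM in AVE0991 replicates 1, 2 and 3. AVE0991 replicates 2 and 3 are the libraries with cerebellar granule cell markers, whose part in these values was not tested.

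The genes whose log2 CPM followed Nlrp3 most closely over the 6 libraries were Usp49, Nup93, Ylpm1, Cep128 and Slc15a2, with a Pearson r of 0.921 to 0.956, taken from 13615 genes as a description. Nup93, a nuclear pore subunit, ran from 22.3 CPM in vehicle replicate 2 to 28.2 CPM in vehicle replicate 1.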
